A study of Mus musculus with 12 samples.

Results

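Plat, Mme, Ly6d and Ddr1 encode a secreted protease and 3 proteins of the cell surface, and each is followed here by 1 probe set on liver expression arrays. The probe sets used are those that carry 1 of these 4 symbols in any of 3 gene lists that the authors deposited at a false discovery rate near 5%. Probe sets outside these lists have no name here, so the arrays may hold further probe sets of the 4 genes. That makes 4 of 32176 deposited probe sets, and all 4 had a value on each of the 12 arrays. The genes were put together because their signal was high after Apc loss and lower when Myc was deleted as well. In the authors' deposited tables, Plat stood in the lists of Apc against WT, of ApcMyc against Apc and of ApcMyc against WT. Ly6d stood in the first of these alone, and Mme and Ddr1 only in that of ApcMyc against Apc. These comparisons, and the responses to Apc loss with and without Myc that the choice looked at, were therefore used in the choice. Where the fit over all probe sets called the 4 genes in them, the calls are given as counts, and nothing is read from them. Myc against WT is the 1 comparison the choice did not use as such, and only there are p-values given for the 4 genes. Its arrays entered comparisons that the choice did use, so these p-values are not independent of it.

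The livers came from 4 groups of mice with 3 arrays each. ApcMyc mice carried homozygous floxed Apc and homozygous floxed Myc, Apc mice floxed Apc alone, Myc mice floxed Myc alone, and WT mice no floxed gene. All 12 samples, WT included, carried the AhCre transgene and were given 3 doses of beta-naphthoflavone in 1 day at 80 mg/kg, with livers taken on day 4. The labels give neither age nor sex, and do not say that the arrays of a group came from separate animals, so a p-value measures the spread between these samples. AhCre puts Cre recombinase under the inducible Cyp1a1 promoter, which responds in hepatocytes but also in other epithelia. The arrays measure whole liver, so more cells of a type and more RNA per cell cannot be told apart.

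Apc is a scaffold of the complex that destroys beta-catenin, and without it beta-catenin accumulates and drives Wnt target genes in the nucleus. Myc is one such target and is itself a transcription factor of growth genes. In normal liver, beta-catenin is active in the hepatocytes around the central vein. Plat encodes tissue plasminogen activator, the secreted serine protease that turns plasminogen into plasmin, which dissolves fibrin. Mme encodes neprilysin (CD10), a zinc peptidase of the plasma membrane that degrades small peptides outside the cell. Ly6d is a small protein held to the outer membrane by a lipid (GPI) anchor and is used as a marker of early B cell progenitors and of some epithelia. Ddr1 is a receptor tyrosine kinase whose ligands are collagens.

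The arrays fell into 2 styles of title, Myc and ApcMyc in one and WT and Apc in the other. Differences between Myc-deleted and Myc-intact groups therefore cannot be told apart from differences between the styles, while ApcMyc against Myc and Apc against WT each lie within a style. Median signal was 59.5 to 106.9 in the Myc-deleted arrays and 35.4 to 53.7 in the Myc-intact arrays before normalization. The 18S rRNA control was 5.36 to 6.10 in the Myc-deleted arrays (log2), and among the Myc-intact ones it was 9.70 in Apc replicate 1 and 9.68 in WT replicate 1, against 8.02 to 8.47 in the rest. The spike-in control dap was 4.09 to 4.27 in all Myc-deleted arrays and 8.01 to 8.57 in all Myc-intact ones. Correlations between arrays of 1 group, across probe sets, lay between 0.957 and 0.981. Values below are quantile normalized signals, and differences and SDs are on the scale of log2(signal + 16), which understates the change of dim genes and moves with the number added. No detection calls were used, so a dim signal is not shown to differ from background.

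Myc itself checks the labels. Its signal was 25.3, 28.8 and 29.5 in ApcMyc, 408, 527 and 368 in Apc, 13.5, 28.2 and 23.5 in Myc, and 78.5, 23.3 and 65.5 in WT. The 3 Apc arrays stood above all others, and the ApcMyc and Myc arrays lay low together with 1 WT array. Myc against WT had a difference of -0.85 (SE 0.286, limma adjusted p = 0.0833), so the loss of Myc was not called against WT. Which exons of Myc the deletion removes is not in the labels, so this probe set may lie outside them and then checks nothing.

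**Figure D1:**
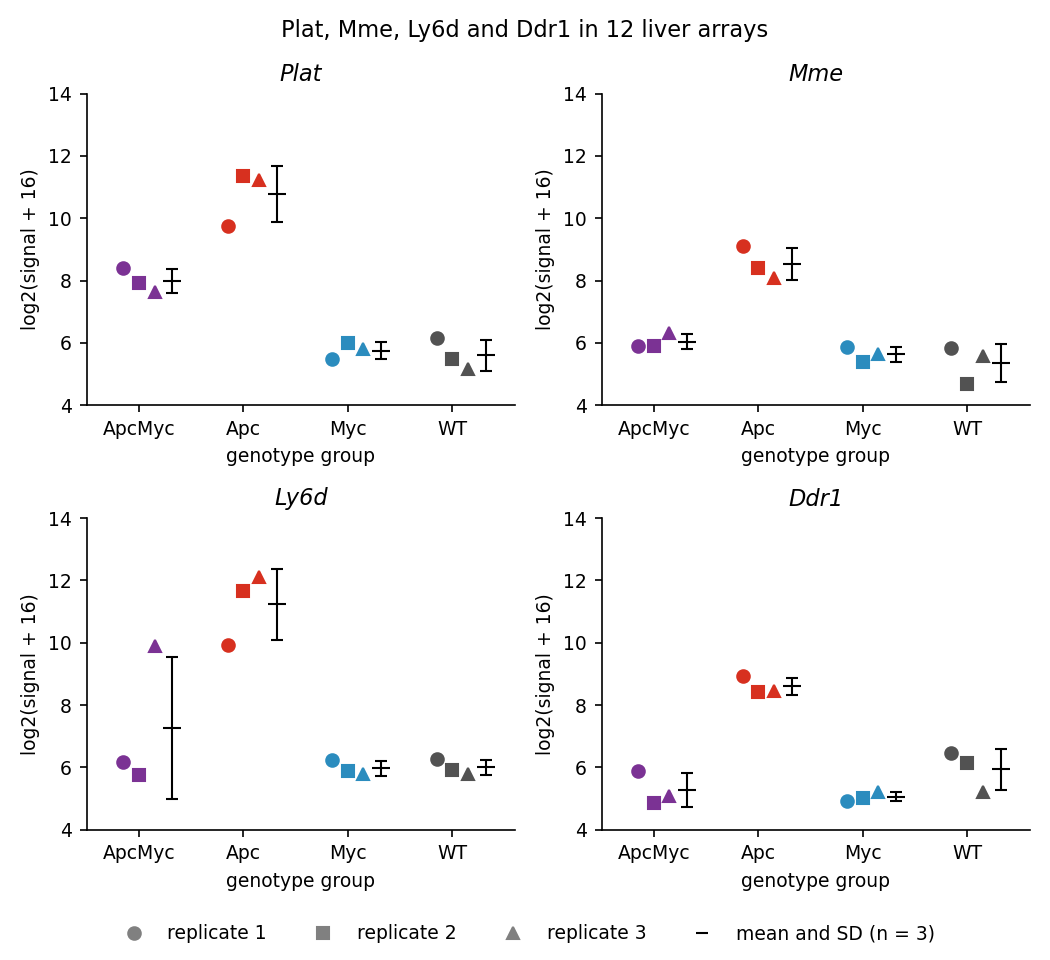
Log2(signal + 16) of Plat, Mme, Ly6d and Ddr1 on each array (points, shaped by replicate) with mean and SD (n = 3) for ApcMyc, Apc, Myc and WT. The 3 Apc arrays are the highest for Plat, Mme and Ddr1, and for Ly6d ApcMyc replicate 3, at 9.89, lies beside Apc replicate 1, at 9.92.

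Plat was high in Apc livers and at an intermediate level in ApcMyc livers. Its signal was 320, 228 and 182 in ApcMyc, 853, 2586 and 2361 in Apc, 28.3, 47.4 and 40.0 in Myc, and 54.8, 29.0 and 20.2 in WT. ApcMyc and Apc arrays did not overlap with each other or with either remaining group, and the Myc and WT arrays overlapped. In Apc, Plat averaged 10.77 ± 0.88, against 5.61 ± 0.49 in WT (log2, SD, n = 3 each), a difference of 5.17 (SE 0.383) or 36.0-fold with 16 added. With 1 added to the signal in place of 16 the difference was 5.72, and with 64 it was 4.21. With Myc deleted the mean was 7.98 ± 0.38 in ApcMyc and 5.75 ± 0.26 in Myc, a difference of 2.23 (SE 0.383) or 4.69-fold. On the log2 scale that is 43.1% of the response seen with Myc intact. Plat was the 1 of the 4 genes called in ApcMyc against Myc, where 6.64% of all probe sets were called in this direction. It thus had a 4.69-fold difference between the Myc-deleted groups, although it was grouped as a gene that needs Myc.

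Mme was high in the Apc livers alone. Its signal was 43.2, 44.1 and 63.4 in ApcMyc, 534, 327 and 253 in Apc, 42.9, 26.3 and 33.9 in Myc, and 41.5, 9.48 and 31.6 in WT. The lowest Apc array stood well above the highest array of any other group, and the lowest ApcMyc array, at 43.2, only just above the highest Myc array, at 42.9. The mean was 8.53 ± 0.52 in Apc, against 5.36 ± 0.61 in WT (n = 3 each), a difference of 3.17 (SE 0.312) or 9.0-fold with 16 added. It was 3.86 with 1 added and 2.21 with 64 added. With Myc deleted it was 6.04 ± 0.24 in ApcMyc, against 5.64 ± 0.24 in Myc, a difference of 0.39 (SE 0.312) and 12.4% of the response with Myc intact.

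The sequence before the outermost RefSeq start of Mme is shown because it holds the core letters bound by TCF/LEF factors, the partners of beta-catenin on DNA. The window is chr3:63294961-63295210 of GRCm38.p6, plus strand, the 250 bases before the start, with matches in capitals.
Mme, 250 bases before the start: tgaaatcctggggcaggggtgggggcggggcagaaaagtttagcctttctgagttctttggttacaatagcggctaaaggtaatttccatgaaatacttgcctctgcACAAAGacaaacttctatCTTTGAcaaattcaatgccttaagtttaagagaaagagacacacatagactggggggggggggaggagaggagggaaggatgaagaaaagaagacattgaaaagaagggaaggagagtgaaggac
Both strands were searched for CTTTGA and CTTTGT, cores of the TCF/LEF motif, and for CACGTG, the E-box that Myc can bind. CTTTGA begins 125 bases before the start, and CTTTGT lies on the other strand, where it reads ACAAAG from 143 bases before the start. CACGTG was not among the letters of this window. Of 32851 such windows in the RefSeq table, 27.6% held CTTTGA or CTTTGT and 6.02% held CACGTG, so a match is common. The windows of the other 2 Mme starts in the table held none of these motifs. A match is a description of letters and not a binding site.

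Ly6d split the ApcMyc livers. Its signal was 55.3, 38.4 and 933 in ApcMyc, 956, 3220 and 4385 in Apc, 59.8, 43.3 and 39.0 in Myc, and 61.1, 44.9 and 39.7 in WT. ApcMyc replicates 1 and 2 lay with the Myc and WT arrays, which ran from 39.0 to 61.1, while ApcMyc replicate 3 stood next to the lowest Apc array. The mean was 11.23 ± 1.15 in Apc, against 6.0 ± 0.24 in WT (n = 3 each), a difference of 5.23 (SE 0.849) or 37.5-fold, and 5.61 and 4.45 with 1 and 64 added. With Myc deleted it was 7.27 ± 2.28 in ApcMyc, against 5.97 ± 0.24 in Myc, a difference of 1.30 (SE 0.849). Without ApcMyc replicate 3 that difference was -0.01 (SE 0.491), so the ApcMyc mean rests on 1 array. That array lay 3.74 above both other ApcMyc arrays for Ly6d, and no other of the 32115 probe sets tested had a gap as large there. Only 6 probe sets lay 2 or more above both others in ApcMyc replicate 3, against 6 in ApcMyc replicate 1 and 5 in ApcMyc replicate 2. Correlation with the other arrays of the group averaged 0.971, against 0.974 and 0.973 for replicates 1 and 2. Its Axin2 signal of 845, against 516 and 556 in ApcMyc replicates 1 and 2, was also the highest of the group. The part of either in the Ly6d value was not tested.

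Ddr1 was high in the Apc livers alone. Its signal was 43.0, 12.9 and 18.3 in ApcMyc, 468, 323 and 335 in Apc, 14.7, 16.1 and 21.2 in Myc, and 72.1, 54.9 and 21.0 in WT. The Apc arrays were clear of all others, and the ApcMyc, Myc and WT ranges overlapped. The mean was 8.59 ± 0.28 in Apc, against 5.94 ± 0.65 in WT (n = 3 each), a difference of 2.65 (SE 0.320) or 6.29-fold, and 3.05 and 1.97 with 1 and 64 added. With Myc deleted it was 5.28 ± 0.54 in ApcMyc, against 5.05 ± 0.14 in Myc, a difference of 0.22 (SE 0.320) and 8.41% of the response with Myc intact. Against Apc livers, ApcMyc livers were lower by 3.32 on the log2 scale (-3.32, SE 0.320), with the title styles confounded. The name of the Ddr1 probe set ends in x_at, a suffix that marks probe sets with probes matching other transcripts too, so part of its signal may come from elsewhere.

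For Ddr1 the table gives 4 starts, none of which is the outermost start of the gene, and CTTTGA lies 15 bases before the most upstream of them, in the stretch chr17:35704600-35704626 of GRCm38.p6, minus strand, shown for comparison with Mme.
Ddr1, around the match: tcagtcaacgtcCTTTGAaagctttgg
The window of the next start downstream held CTTTGT 83 and 68 bases before that start, those of the remaining 2 starts held neither core, and none of the 4 held CACGTG. Plat and Ly6d are named here without a sequence.

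Set beside each other, the 4 genes differed in how far they moved and in what was left without Myc. All 4 were called higher in Apc against WT, where 7.87% of all probe sets were called in that direction, and nothing is read from this count because the genes were chosen on it. For all 4 the Apc arrays also lay above all WT arrays, as for 15.3% of all probe sets. Likewise all 4 were called lower in ApcMyc against Apc, where 10.4% of all were. ApcMyc arrays lay above all Myc arrays for Plat and Mme, as for 17% of all probe sets, and overlapped with Myc arrays for Ly6d and Ddr1. In ApcMyc against WT, Plat was called higher, at 2.38 (SE 0.383), where 12.2% of all probe sets were, and Mme (0.67), Ly6d (1.27) and Ddr1 (-0.66) were not called. Among 32115 probe sets, 3 had a larger difference than Plat in Apc against WT, 2 than Ly6d, 60 than Mme and 121 than Ddr1. The response to Apc loss without Myc, minus that with Myc, was -2.94 for Plat (SE 0.542), -2.77 for Mme (SE 0.441), -3.93 for Ly6d (SE 1.20) and -2.43 for Ddr1 (SE 0.452). An additive difference between title styles cancels in this measure. This difference of responses was called for Plat, Mme and Ddr1, and for 1.11% of all probe sets in that direction. The genes were chosen on it, so nothing is read from that count. On the scores as deposited and with a pseudocount of 1 it was called for none of the 4. Calls over all probe sets also depended on single arrays, with 744 in either direction from 12 arrays and 159 without WT replicate 2. Ly6d had the largest difference of these and was not called, and its 3 ApcMyc arrays had an SD of 2.28. Of 2529 probe sets called higher in Apc against WT, 208 were also called with a negative difference of responses, of which 46 had a name, counts that carry the same limit.

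**Figure D2:**
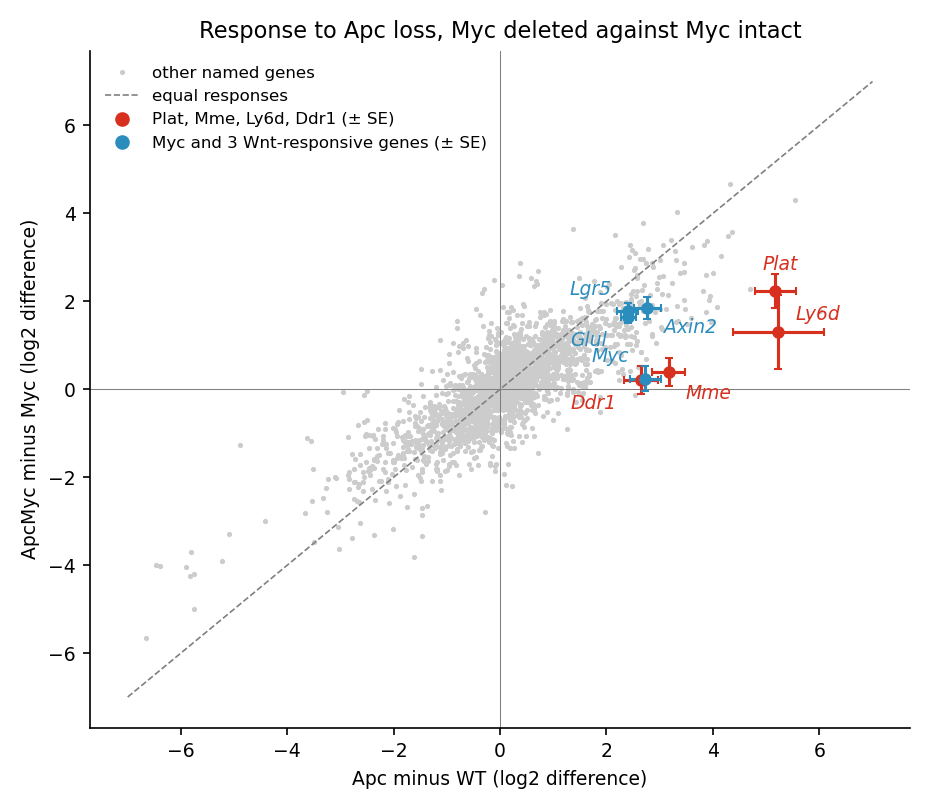
Difference of ApcMyc minus Myc (vertical, log2) against that of Apc minus WT (horizontal, log2) for genes named in the deposited lists (grey) with SE bars for the 4 genes (red) and for Myc, Axin2, Lgr5 and Glul (blue). Plat at 2.23 and Ly6d at 1.30 lie right of and below the line of equal responses, Mme and Ddr1 lie near 0 beside Myc, and Axin2, Lgr5 and Glul lie closer to the line.

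With Apc intact, the loss of Myc was not found to change any of the 4 genes. All 4 were dim in WT, with signals of 9.48 to 72.1, which leaves little room to see a fall. In Myc against WT the limma fit called 0 of 4, where 9.11% of all probe sets were called, and 1 of 4, Ddr1, had an unadjusted p under 0.05, where 25.5% of all did. Plat averaged 5.75 in Myc and 5.61 in WT, a difference of 0.15 (95% interval -0.68 to 0.98, adjusted p = 0.851). Mme averaged 5.64 in Myc and 5.36 in WT, a difference of 0.28 (95% interval -0.40 to 0.95, adjusted p = 0.628). For Ly6d the means were 5.97 in Myc and 6.0 in WT, a difference of -0.03 (95% interval -1.87 to 1.82, adjusted p = 0.991). Ddr1 averaged 5.05 in Myc and 5.94 in WT, a difference of -0.88 (95% interval -1.58 to -0.19, adjusted p = 0.104). Without WT replicate 3, the lowest WT array for Ddr1, that difference was -1.25 and was called (limma adjusted p = 0.0316). The groups overlapped for all 4 genes, whereas for 33.3% of all probe sets they did not. Each interval takes in changes of a size that the fit over 12 arrays could not resolve. For Ly6d that fit shares 1 spread over groups with SDs of 2.28 in ApcMyc, 1.15 in Apc and 0.24 in both Myc and WT. Fitted with only the groups compared, the Ly6d difference was -0.03 (SE 0.191). Myc deletion and title style cannot be told apart here. Arrays of both groups also entered comparisons used in the choice of the genes, so this is no independent test.

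Within the Apc group the 4 genes did not follow one order. Apc replicate 1 was the lowest of the 3 for Plat, at 853, and for Ly6d, at 956, and the highest for Mme, at 534, and for Ddr1, at 468. It was also an array with high 18S rRNA. Without it, the difference of Apc minus WT was 5.68 for Plat, 5.88 for Ly6d, 2.88 for Mme and 2.49 for Ddr1, so all 4 stayed far above WT. Correlations between pairs of the 4 genes over the 12 arrays were 0.786 to 0.874, a figure set mainly by the Apc group. After subtraction of group means they were -0.447 to 0.219, so the arrays of 1 group did not rank the genes alike.

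Wnt targets and pericentral genes give the setting in which these values stand. Of 27 genes of a list drawn up for this purpose, 15 are named in the deposited lists, which were chosen on these samples and so are no independent evidence of direction. In ApcMyc against Myc 13 of the 15 rose and none fell, and in Apc against WT 14 rose and none fell. Among all named genes 23% rose and 21.6% fell in ApcMyc against Myc, and 25.4% rose and 20.4% fell in Apc against WT. The median difference of the list was 1.77 in ApcMyc against Myc and 2.46 in Apc against WT, and that of all named genes was 0.13 in both. Axin2, a feedback inhibitor of Wnt signalling, rose by 1.85 in ApcMyc against Myc (limma adjusted p = 0.000584) and by 2.77 in Apc against WT (adjusted p = 2.04e-05). Axin2 signal was 516, 556 and 845 in ApcMyc and 618, 734 and 706 in Apc, against 145, 126 and 228 in Myc and 120, 69.8 and 76.0 in WT. Glul, the glutamine synthetase of pericentral hepatocytes, rose by 1.64 and 2.41 in the same comparisons. Lgr5, a receptor for R-spondin, rose by 1.77 and 2.40, Rhbg, an ammonium transporter, by 3.02 and 4.15, and Lect2, a secreted liver protein, by 1.78 and 1.94. With Myc deleted, the response of Axin2 was 66.8%, that of Lgr5 73.9% and that of Glul 68.1% of the response with Myc intact on the log2 scale. Those of Plat, Mme, Ly6d and Ddr1 ran from 8.41% to 43.1%, a range that the choice of the genes favours. Between ApcMyc and Apc, Axin2 differed by -0.13, Lgr5 by -0.05, Glul by -0.45 and Rhbg by -0.05. Between Myc and WT, Axin2 differed by 0.79, Lgr5 by 0.57, Glul by 0.32 and Rhbg by 1.08. Title style is confounded with both of these comparisons. The difference of responses was called for 3 of the 15, namely Myc (-2.49), the glutamate transporter Slc1a2 (-1.42) and Rhbg (-1.13). All 3 were negative, where 2.99% of all named genes were called in that direction. The value of Slc1a2 is that of the brightest of its 5 named probe sets. Over the 15 the median difference of responses was -0.77, against -0.02 over all named genes. Smaller responses with Myc deleted were thus not particular to the 4 genes.

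**Figure D3:**
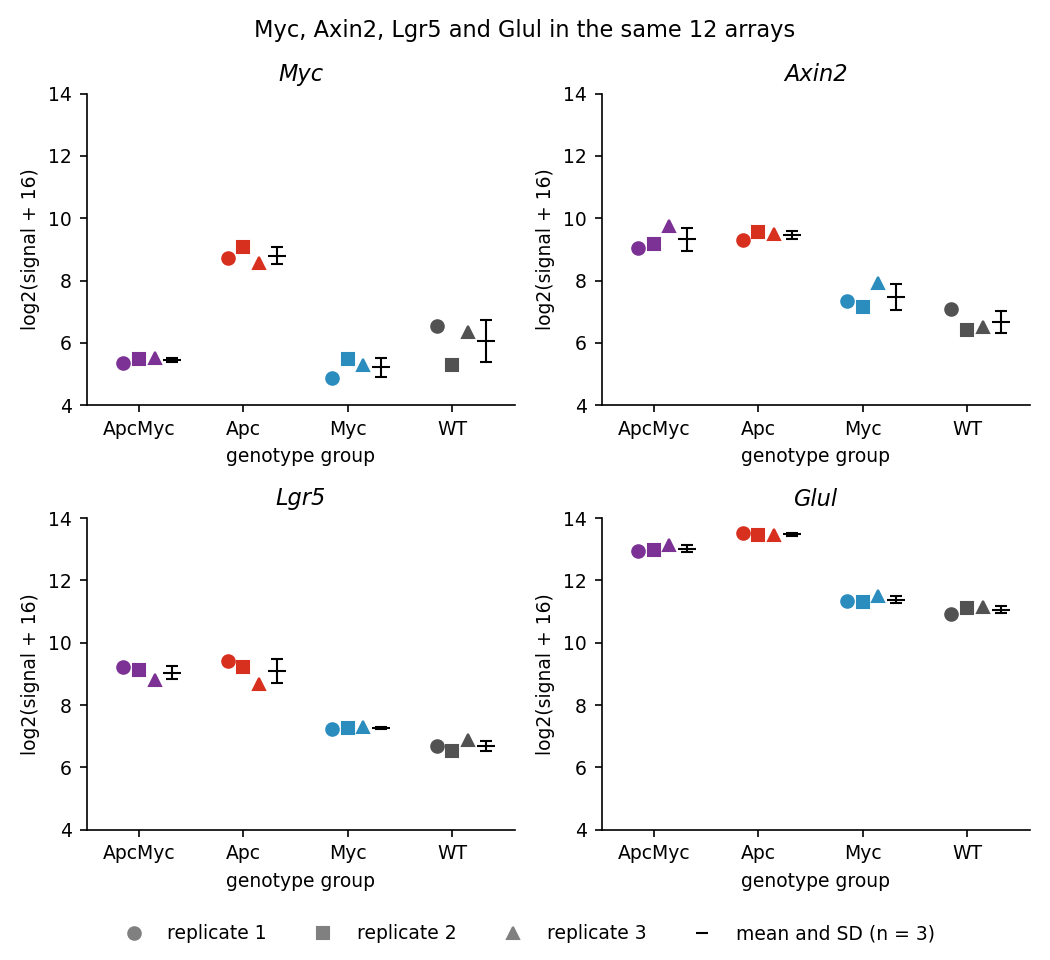
Log2(signal + 16) of Myc, Axin2, Lgr5 and Glul on each array (points, shaped by replicate) with mean and SD (n = 3) for ApcMyc, Apc, Myc and WT. Axin2, Lgr5 and Glul are high in both ApcMyc and Apc, with means of 9.32 and 9.45 for Axin2, while Myc is high in Apc alone.

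Of 19 listed genes of the plasminogen system around Plat 7 are named, Plat included. Of the other 6, in ApcMyc against Myc 3 rose and 1 fell, and in Apc against WT 2 rose and none fell. Among all named genes 23% rose and 21.6% fell in ApcMyc against Myc, and 25.4% rose and 20.4% fell in Apc against WT. Their median difference was 1.07 in ApcMyc against Myc and 1.15 in Apc against WT. Anxa2 and S100a10, which pair as a cell surface receptor for plasminogen and tissue plasminogen activator, were the 2 that rose in both. Anxa2 rose by 2.41 (SE 0.396, limma adjusted p = 0.00194) in ApcMyc against Myc and by 3.22 (SE 0.396, adjusted p = 0.000193) in Apc against WT. S100a10 rose by 1.47 (adjusted p = 0.00381) and by 2.16 (adjusted p = 0.000216) in the same comparisons. Plgrkt, a plasminogen receptor, rose by 1.06 in ApcMyc against Myc (adjusted p = 0.0313) and had a difference of 0.20 in Apc against WT (adjusted p = 0.704). Vtn, vitronectin, which stabilizes the inhibitor of plasminogen activators, fell by 0.53 on the log2 scale in ApcMyc against Myc (adjusted p = 0.0384) and had a difference of -0.49 in Apc against WT (adjusted p = 0.0509). The difference of responses was called for 0 of these 6 by limma, where 2.94% of all named genes were called as positive and 2.99% as negative, including Anxa2 (-0.81, adjusted p = 0.465) and S100a10 (-0.69, adjusted p = 0.354). The median difference of responses of the 6 was -0.55, against -0.02 over all named genes.

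Of 29 listed peptidases of the cell surface 7 are named, and of the 6 apart from Mme 1 rose and 2 fell in ApcMyc against Myc and 2 rose and 2 fell in Apc against WT, counts close to those shares of all named genes. Their median difference was -0.19 in ApcMyc against Myc and -0.10 in Apc against WT. Tmprss2, a membrane serine protease, rose by 1.54 in ApcMyc against Myc (adjusted p = 0.00351) and by 1.61 in Apc against WT (adjusted p = 0.00203). Cpm, a membrane carboxypeptidase, rose by 2.23 in Apc against WT (limma adjusted p = 0.0108) and had a difference of 0.21 in ApcMyc against Myc (adjusted p = 0.843). Its difference of responses, -2.02, was not called (adjusted p = 0.156). Cpm signal was 88.1, 5.12 and 2.90 in ApcMyc, 90.0, 106 and 54.4 in Apc, 19.1, 4.71 and 21.2 in Myc, and 3.63, 3.39 and 7.22 in WT. A single ApcMyc array, replicate 1, lay within the Apc range, whereas for Ly6d the single high array was replicate 3, just below that range. Ece1, which processes endothelin, fell by 1.68 on the log2 scale in ApcMyc against Myc (adjusted p = 0.00248), and in Apc against WT its difference was -0.19 (adjusted p = 0.709). Tmprss6, a liver protease that restrains hepcidin, fell in both, with differences of -1.05 in ApcMyc against Myc (adjusted p = 0.000881) and -0.61 in Apc against WT (adjusted p = 0.0169).

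**Figure D4:**
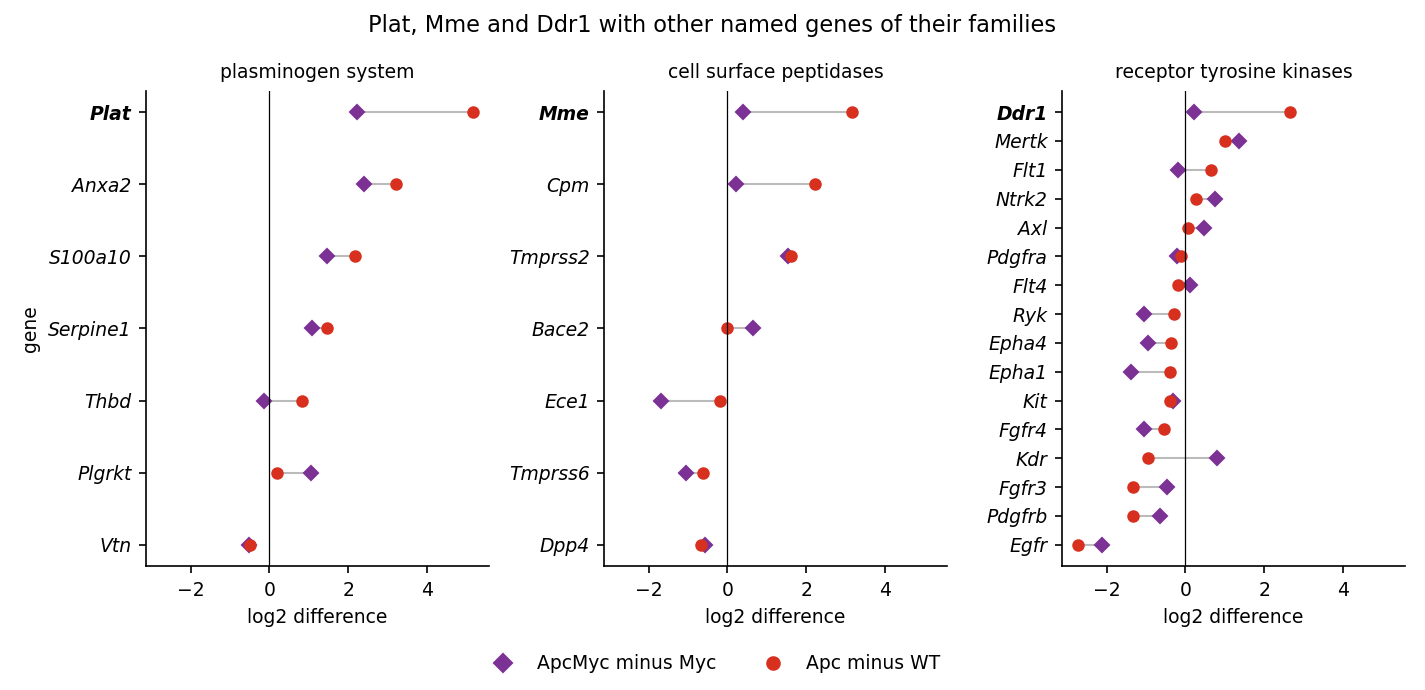
Log2 differences of ApcMyc minus Myc (diamonds) and of Apc minus WT (circles) for Plat, Mme and Ddr1 (bold, top of each panel) and the other named genes of the plasminogen system, the cell surface peptidases and the receptor tyrosine kinases. Anxa2 keeps 2.41 of 3.22 and Tmprss2 1.54 of 1.61, while Cpm, at 0.21 and 2.23, has a gap like that of Mme, at 0.39 and 3.17.

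Of 40 listed receptor tyrosine kinases 16 are named, and of the 15 apart from Ddr1 1 rose and 5 fell in ApcMyc against Myc and 1 rose and 4 fell in Apc against WT. The falls lie near the 21.6% and 20.4% of all named genes that fell in these comparisons. Their median difference was -0.31 in ApcMyc against Myc and -0.36 in Apc against WT. The 1 that rose was Mertk in both, a receptor for the clearance of dying cells, by 1.35 (adjusted p = 0.00100) and by 1.01 (adjusted p = 0.00482). Egfr, the epidermal growth factor receptor that is abundant in liver, fell in both, with differences of -2.11 in ApcMyc against Myc (adjusted p = 0.000147) and -2.73 in Apc against WT (adjusted p = 1.4e-05). Fgfr3 fell by 1.32 in Apc against WT (adjusted p = 0.00134), and its difference in ApcMyc against Myc was -0.47 (adjusted p = 0.173). Ryk, a receptor for Wnt ligands, fell by 1.06 in ApcMyc against Myc (adjusted p = 0.00446), and its difference in Apc against WT was -0.29 (adjusted p = 0.372). The difference of responses was called for 1 of the 15, with the opposite sign to Ddr1. This was Kdr, a receptor for vascular endothelial growth factor that marks endothelial cells, at 1.75 (limma adjusted p = 0.0310), named after its value was seen. Its difference was 0.80 in ApcMyc against Myc (adjusted p = 0.0596) and -0.95 in Apc against WT (adjusted p = 0.0247).

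For the matrix that Ddr1 binds, 5 of 30 listed collagens, matrix proteases and inhibitors are named, and 2 rose in ApcMyc against Myc and 1 in Apc against WT. Their median difference was 0.74 in ApcMyc against Myc and 0.24 in Apc against WT. Mmp12, a macrophage elastase, rose in both, by 1.61 (adjusted p = 0.00876) and by 1.54 (adjusted p = 0.00927), and Timp3, a protease inhibitor, rose by 0.93 in ApcMyc against Myc (adjusted p = 0.0464). The collagen Col4a1 had differences of 0.74 (adjusted p = 0.136) and 0.49 (adjusted p = 0.325). Of 24 listed genes of the Ly6 and uPAR family 2 are named, Ly6d and Cd59a. Cd59a, a GPI-anchored inhibitor of complement, fell in both, with differences of -1.32 in ApcMyc against Myc (limma adjusted p = 0.000411) and -1.57 in Apc against WT (adjusted p = 7.73e-05).

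Markers of other cells that can carry these proteins were named only in part, and the arrays have no true 0. A marker is named only if it stands in the deposited lists. The largest of these is that of ApcMyc against WT, with 1628 positive and 1243 negative probe sets. The named markers were thus partly chosen on ApcMyc, and their sums only describe them. Of 13 B cell genes 3 are named, and their summed signal was 172 to 385 in ApcMyc and 213 to 522 in Apc, against 106 to 186 in Myc and 44 to 90 in WT. Most of that came from Blnk, an adaptor of B cell receptor signalling, at 152 to 298 in ApcMyc, 193 to 437 in Apc, 85.3 to 165 in Myc and 33.0 to 55.1 in WT. Blnk rose by 2.23 in Apc against WT (limma adjusted p = 0.000595), its difference in ApcMyc against Myc was 0.84 (adjusted p = 0.107), and it was the 1 of the 3 called in either. Apc replicate 1, the highest array for Blnk, was the lowest Apc array for Ly6d and the highest for Mme. Of 10 squamous and bladder epithelium genes 2 are named, with sums of 208 to 602 in ApcMyc and 182 to 737 in Apc, against 41 to 68 in Myc and 47 to 78 in WT. Sprr1a, a protein of the cornified envelope, carried these sums and rose by 2.87 in ApcMyc against Myc (adjusted p = 0.00282) and by 2.86 in Apc against WT (adjusted p = 0.00216). Trp63, a transcription factor of squamous epithelium, had differences of -0.43 (adjusted p = 0.410) and -0.22 (adjusted p = 0.685). Sums of the 5 endothelial genes named of 11 were 1063 to 1233 in ApcMyc and 351 to 572 in Apc, against 584 to 619 in Myc and 278 to 671 in WT. Those of the 3 macrophage genes named of 11 were 1811 to 2486 in ApcMyc and 564 to 886 in Apc, against 1625 to 2161 in Myc and 490 to 1362 in WT. The endothelial and macrophage sums were thus higher in ApcMyc than in Apc. Title style is confounded with this comparison, and the choice of named markers through ApcMyc may favour it. Nothing is read from it about cell numbers. Macrophage sums were also higher in Myc than in WT. The hepatocyte sums, of 2 genes named of 8, were 13088 to 16544 in ApcMyc and 20663 to 22411 in Apc, against 22077 to 22521 in Myc and 26188 to 27085 in WT. Of the 2, Apoa1 had the same normalized value, 13.92 (log2, SD 0), on all Apc and WT arrays. The sums of those groups thus differ by Serpina1a alone, at -0.94 in Apc against WT. Prom1, the 1 gene named of 11 for biliary and progenitor cells, was 308 to 729 in ApcMyc and 209 to 611 in Apc, against 29 to 32 in Myc and 17 to 29 in WT. Pdgfrb, the 1 gene named of 11 for stellate cells and fibroblasts, was 45 to 56 in ApcMyc and 36 to 97 in Apc, against 81 to 101 in Myc and 133 to 196 in WT. Sums of the 2 neutrophil genes were 147 to 704 in ApcMyc and 111 to 557 in Apc, against 213 to 299 in Myc and 71 to 231 in WT. Those of the 3 T and NK cell genes were 211 to 304 in ApcMyc and 71 to 105 in Apc, against 166 to 183 in Myc and 67 to 140 in WT. Those of the 4 red cell genes were 281 to 450 in ApcMyc and 210 to 333 in Apc, against 707 to 890 in Myc and 1172 to 1332 in WT. The part of such cells in the values of the 4 genes was not tested.

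**Figure D5:**
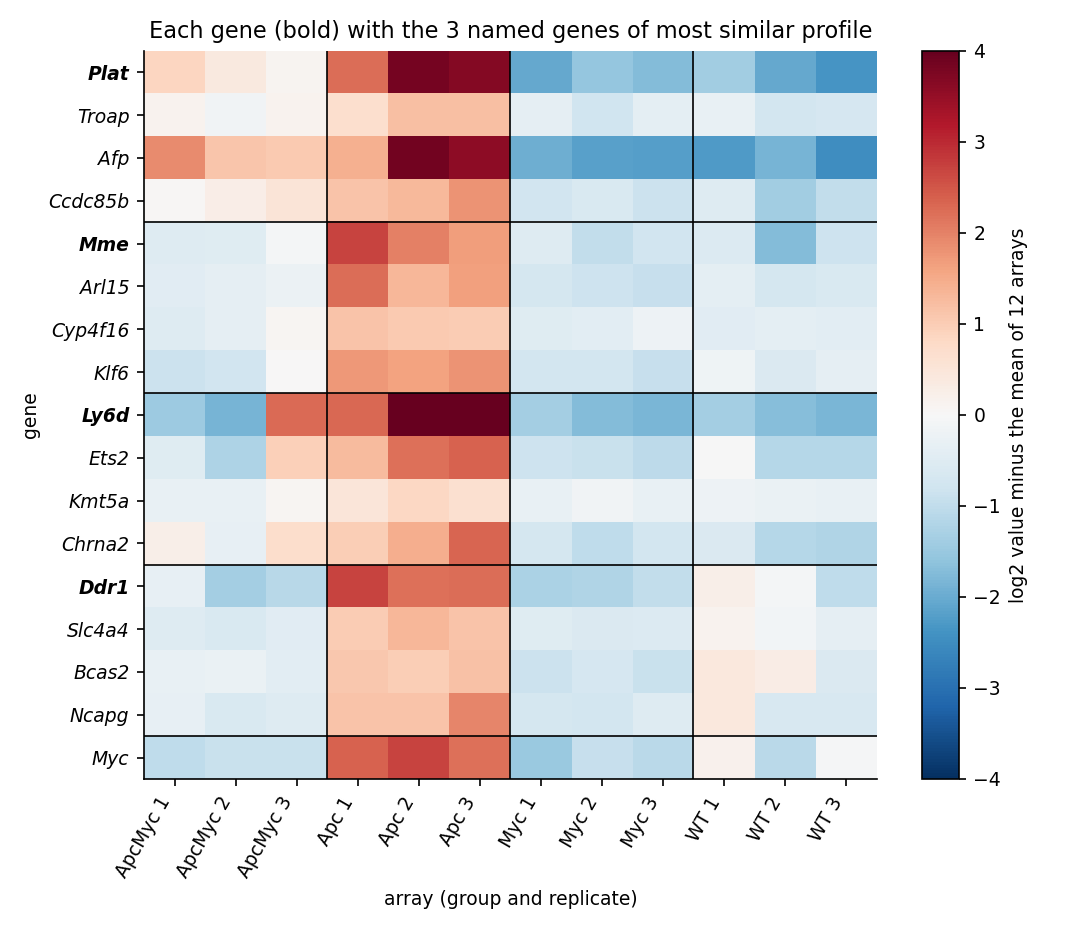
Log2 value minus the mean of the 12 arrays (colour, from -4 to 4) for each of the 4 genes (bold), for the 3 named genes whose profile correlates best with it, and for Myc, with arrays in columns. The 3 Apc columns are above the mean in every row, and Afp beside Plat and Ets2 beside Ly6d rank the 3 Apc arrays as those genes do, with Ly6d past the end of the colours in Apc replicates 2 and 3, at 4.04 and 4.49.

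Named genes of other symbols were ranked by Pearson correlation with each of the 4 over the 12 arrays, as a description. Closest to Plat among 2516 named probe sets were Troap (0.971), Afp (0.964) and Ccdc85b (0.964). Afp, a fetal protein of the albumin family, had a signal of 601, 339 and 328 in ApcMyc and 431, 2381 and 1977 in Apc. In Myc it had 26.3, 20.4 and 19.9, and in WT 18.3, 29.4 and 13.7. Like Plat it was lowest in replicate 1 of the Apc arrays and highest in replicate 1 of the ApcMyc arrays, with a correlation of 0.825 after subtraction of group means. Afp has 4 named probe sets and the value is that of 1. Closest to Mme were Arl15 (0.968), Cyp4f16 (0.951) and Klf6 (0.932), and closest to Ddr1 were Slc4a4 (0.972), Bcas2 (0.944) and Ncapg (0.937). Closest to Ly6d were Ets2 (0.979), Kmt5a (0.957) and Chrna2 (0.939). Ets2, a transcription factor, had a signal of 19.0, 4.81 and 78.2 in ApcMyc, 100, 206 and 235 in Apc, 11.4, 10.3 and 7.32 in Myc, and 32.2, 5.98 and 6.27 in WT. It was highest of its group in ApcMyc replicate 3, as Ly6d was, and its correlation with Ly6d after subtraction of group means was 0.901. Ets2 has 2 named probe sets, and these values are those of the dimmer, whose name ends in x_at. That probe set differed by 0.68 in ApcMyc against Myc and 2.70 in Apc against WT, and the brighter one by 1.31 and 2.55. These correlations were picked as the highest of many and all points share the 12 arrays.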

How the data were processed

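Liver RNA of 12 samples was hybridized to 1 array each. Per the labels' protocols, total RNA came from a Trizol and RNeasy preparation and an Enzo BioArray kit labelled it. Array type and scanner software were not given in the sources used here, nor were filters. Each deposited value is a score: the log signal of each array was centred and divided by the SD of that array, as the values show. The deposited lists, made with SAM per the file headers, likewise hold a score per probe set, used here for membership and names only.

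The scores step like logs of signals written to 0.1 and raised to at least 1. From this the constants of each array and its linear signals were recovered in 20 rounds, and on every array 100.0% of signals under 1000 came out within 0.01 of a multiple of 0.1. All 32176 probe sets were quantile normalized, and values are log2(signal + 16). The 61 controls were left out, and 32115 probe sets were fitted with 4 group means over the 12 arrays in limma 3.58.1 (R 4.3.3). P-values are two-sided and adjusted by Benjamini and Hochberg over all of these, and called means an adjusted p under 0.05. The fit was checked on simulated arrays with known changes. The number of arrays limits the precision.

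The plan assumed linear or log2 values, which is why signals were recovered from the scores. Names come from the 3 looser lists: 2517 of their 2975 probe sets carry 1 symbol, of which 1978 were as in the RefSeq table (GRCm38.p6, used for names), 376 were updated and 163 had no match. These are 2176 genes, each taken by its probe set of highest mean. Motif windows are from RefSeq promoters of GRCm38.p6. By rule the text names the 4 genes, up to 4 genes of each pathway list with the smallest p in ApcMyc against Myc or Apc against WT, Myc, and the 3 most correlated named probe sets. Axin2 and Lgr5 were named beyond that rule, after their values were seen, as were Blnk, Sprr1a, Trp63, Prom1, Pdgfrb and Kdr and the per-array values of Cpm, Afp and Ets2. The 4 genes and all lists were chosen with earlier results of these data known. WT and Apc titles share replicate numbers, but the correlations of deviations from group means were 0.0627, 0.00557 and -0.0122, so the numbers do not pair the arrays. Alternatives were the scores as deposited, median scaling, other pseudocounts (1 and 64), an intensity trend, a filter on low probe sets, only the groups compared, a replicate block and leaving out each array. Python 3.11.15 with pandas 2.3.3, NumPy 2.4.6, SciPy 1.17.1 and matplotlib 3.10.9 did the rest.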

Additional observations from a re-analysis of the deposited data

Results flagged for a closer look

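The response to Apc loss was set side by side in Myc-deleted and Myc-intact livers by the interaction term of the limma fit (n = 3 per group). For Plat the response was 2.23 in ApcMyc against Myc and 5.17 in Apc against WT, a difference of -2.94. For Mme it was 0.39 and 3.17, a difference of -2.77, and for Ddr1 0.22 and 2.65, a difference of -2.43. These 3 genes were chosen for this difference, which only describes them and is no test result. Among the other genes named, 4 differed by the test. Myc, with 0.24 and 2.73, differed by -2.49 (adjusted p = 0.0154), and the labels name it as the deleted gene. Rhbg, with 3.02 and 4.15, differed by -1.13 (adjusted p = 0.0363), and Slc1a2, with 2.04 and 3.45, by -1.42 (adjusted p = 0.0272). Both still rose in ApcMyc against Myc, and Slc1a2 is given by the brightest of its 5 named probe sets. Between ApcMyc and Apc, Rhbg differed by -0.05 and Slc1a2 by -0.63. Between Myc and WT, Rhbg differed by 1.08 and Slc1a2 by 0.79, and title style is confounded with both of these comparisons. Kdr, with 0.80 and -0.95, differed by 1.75 (adjusted p = 0.0310). Over 18 alternatives Myc was called in 16, Slc1a2 in 12, Kdr in 9 and Rhbg in 7, with the same sign in all, and their adjusted p reached 0.0806, 0.0700, 0.0774 and 0.0880.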

How the results depend on the processing

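Counts are of the 4 genes called. With 3 arrays a group, the difference of responses stands near its threshold. In the main setting 3 were called, and 0 on the scores as deposited and with a pseudocount of 1. Leaving out single arrays gave 1 to 4. It was 1 without Apc replicate 2, ApcMyc replicate 2, Myc replicate 2, Myc replicate 3 or WT replicate 2, and without ApcMyc replicate 3 Ly6d was called, at -5.24. In Myc against WT, leaving out arrays gave 0 to 1, and in ApcMyc against WT 1 to 2, both by Ddr1 without WT replicate 3 (-1.25 and -1.03). The counts of 4 for Apc against WT, 4 for ApcMyc against Apc and 1 for ApcMyc against Myc were the same under all alternatives run. Because the genes were chosen on these comparisons in the same arrays, nothing is read from that. Calls over all probe sets ran from 2161 to 5906 for Apc against WT, 4554 to 7630 for ApcMyc against Apc and 2539 to 5249 for ApcMyc against Myc. Over all probe sets, median scaling gave 399 positive and 766 negative calls for the difference of responses, against 386 and 358 with quantile normalization. These were 94 and 68 on the scores as deposited, 110 and 84 with a pseudocount of 1, 788 and 798 with 64, 648 and 661 with an intensity trend, and 701 and 696 with low probe sets left out. Leaving out single arrays gave 159 (without WT replicate 2) to 929 (without Apc replicate 3) in all, against 744. Median scaling gave 1748 and 3463 for ApcMyc against Myc, against 2131 and 2171. Signs turned only for differences that were not called. In Myc against WT, Plat stood at -0.06 without WT replicate 3, Mme at -0.07 without WT replicate 2, and Ly6d at 0.01, 0.07 and 0.11 without Myc replicate 2, Myc replicate 3 and WT replicate 1, over leave-one-out ranges of -0.06 to 0.42, -0.07 to 0.52 and -0.16 to 0.11. Ly6d was at -0.01 in ApcMyc against Myc and -0.04 in ApcMyc against WT without ApcMyc replicate 3, against 1.30 and 1.27 with it, and Ddr1 at -0.08 in ApcMyc against Myc without ApcMyc replicate 1, and without ApcMyc replicate 2 these were 2.05, 2.02 and 0.44. The replicate block on WT and Apc kept all 4 called, with 2161 probe sets called in all, against 3151 without the block and 4996 with all 12 arrays. The cause of these changes was not tested beyond the fewer arrays in a fit.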
